A study of Mus musculus with 4 samples.

Results

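The *Olfr78*/*Calcr* cluster was a group of 53 neuronal nuclei of the posterior mouse hindbrain, named by the authors after 2 of its genes. Its members were the nuclei that passed the authors' filter and bore that cluster annotation in the deposited table of nuclei, 53 of 12539 neurons and of 39461 nuclei kept in all. Single-nucleus RNA sequencing was run on 4 libraries of dissected tissue that held the area postrema (AP) and the nucleus tractus solitarius (NTS). Of the 2 groups, the control mice are labelled WT and, by the study's methods, carried the hM3DGq fl/- and hM4DGi fl/- alleles without Cre or Dre. The AgRP-Gq;POMC-Gi mice carried AgRP-IRES-Cre+/- and POMC-Dre+/- beside the same hM3DGq fl/- and hM4DGi fl/- alleles, so that CNO activates AgRP neurons by hM3DGq and inhibits POMC neurons by hM4DGi. All mice were 12 to 20 weeks old and received CNO at 3 mg per kg, and the tissue was taken 1 h later. The methods state 2 mice pooled per group, and the sources do not tell which mice entered which library. The p-values therefore measure at most the spread between these libraries. The sex markers given at the end show that the 2 AgRP-Gq;POMC-Gi libraries did not hold the same mix of mice. Both control libraries held nuclei of both sexes. If the control group was 2 mice in all, both libraries drew on the same mice and were not independent animals.

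As background, the AP lies outside the blood-brain barrier and, with the adjoining NTS, reads hormones and visceral signals that bear on feeding. *Calcr* encodes the calcitonin receptor, which binds amylin when it is joined by a receptor activity-modifying protein such as the product of *Ramp3*. *Olfr78* encodes an olfactory receptor that is also expressed outside the nose, in carotid body glomus cells among others, and that responds to short-chain fatty acids.

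The 53 nuclei were spread unevenly, with 3 and 4 in control replicates 1 and 2 against 25 and 21 in those of the AgRP-Gq;POMC-Gi group. They held 428867 unique molecular identifiers (UMIs, counted transcript molecules), of which the 2 control libraries gave 33778 and 29933, and AgRP-Gq;POMC-Gi replicates 1 and 2 gave 186626 and 178530. A nucleus had a median of 7512 UMIs and 3188 genes, against 8710.5 UMIs and 3566.5 genes in the other 12486 neurons. The median mitochondrial share was 0.0895% in the cluster and 0.0914% in other neurons. One barcode of the cluster was also that of a kept nucleus in another library, and no barcode occurred in more than 1 library of the cluster. Every value from a control library therefore rested on 3 or 4 nuclei.

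The levels of both label genes were read in every library. *Olfr78* (ENSMUSG00000043366, GRCm38 chr7:102738511-102759471, minus strand) had 2, 6, 52 and 24 UMIs, given for control replicates 1 and 2 and then for those of AgRP-Gq;POMC-Gi, an order kept for all sets of 4 values below. Scaled to 1000000 UMIs of the cluster in a library (CPM), this gave 59.2, 200.4, 279 and 134. In other neurons *Olfr78* stood at 0.522, 0.511, 1.07 and 0.456 CPM in the same libraries, so the lowest value of the cluster was far above the highest of the rest. The mean level was 168 ± 93.5 CPM (SD, n = 4 libraries) in the cluster and 0.641 ± 0.290 CPM in other neurons, a ratio of 263. *Calcr* (ENSMUSG00000023964, chr6:3685680-3764714, minus strand) stood at 59.2, 234, 407 and 353 CPM in the cluster and at 5.85, 3.54, 4.04 and 2.02 CPM in other neurons. Its mean was 263 ± 154.1 CPM against 3.86 ± 1.58 CPM, a ratio of 68.1, which was 104 without control replicate 1. Both genes were higher than in other neurons in each of the 4 libraries. The study named neuronal clusters after their 2 strongest marker genes in these same nuclei, so this does not test the label. As clusters were built from the expression of these same nuclei, all comparisons of levels with other neurons are descriptions and carry no test.

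Each label gene was read in a part of the nuclei only. *Olfr78* had a UMI in 32 of 53 nuclei (60.4%, 95% exact Clopper-Pearson interval 46.0 to 73.5%) and *Calcr* in 33 (62.3%, 47.9 to 75.2%). Both were read in 21 nuclei, *Olfr78* alone in 11, *Calcr* alone in 12 and neither in 9. The 21 nuclei with both had a median of 7468 UMIs and the 9 with neither a median of 7085, so both sets were of like depth. Among nuclei with a UMI the median was 2 UMIs for either gene, with a highest count of 8 for *Olfr78* and 19 for *Calcr*. The background for these shares was low. In oligodendrocytes, which should lack both, *Olfr78* had a UMI in 2 of 16816 nuclei (0.0119%) and *Calcr* in 9 (0.0535%), at a median depth of 2460 UMIs. With every nucleus thinned to 2000 UMIs, *Olfr78* was read in 26.4% of the cluster, 0.122% of other neurons and 0 of 11400 oligodendrocytes, where a floor of 3 nuclei allows a share with a UMI of up to 0.0263%. *Calcr* was then read in 24.5%, 0.722% and, in just 3 nuclei, 0.0263%. At the depth of these nuclei a cell without a UMI cannot be told from one with few transcripts, and the intervals cover counting error only.

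**Figure D1:**
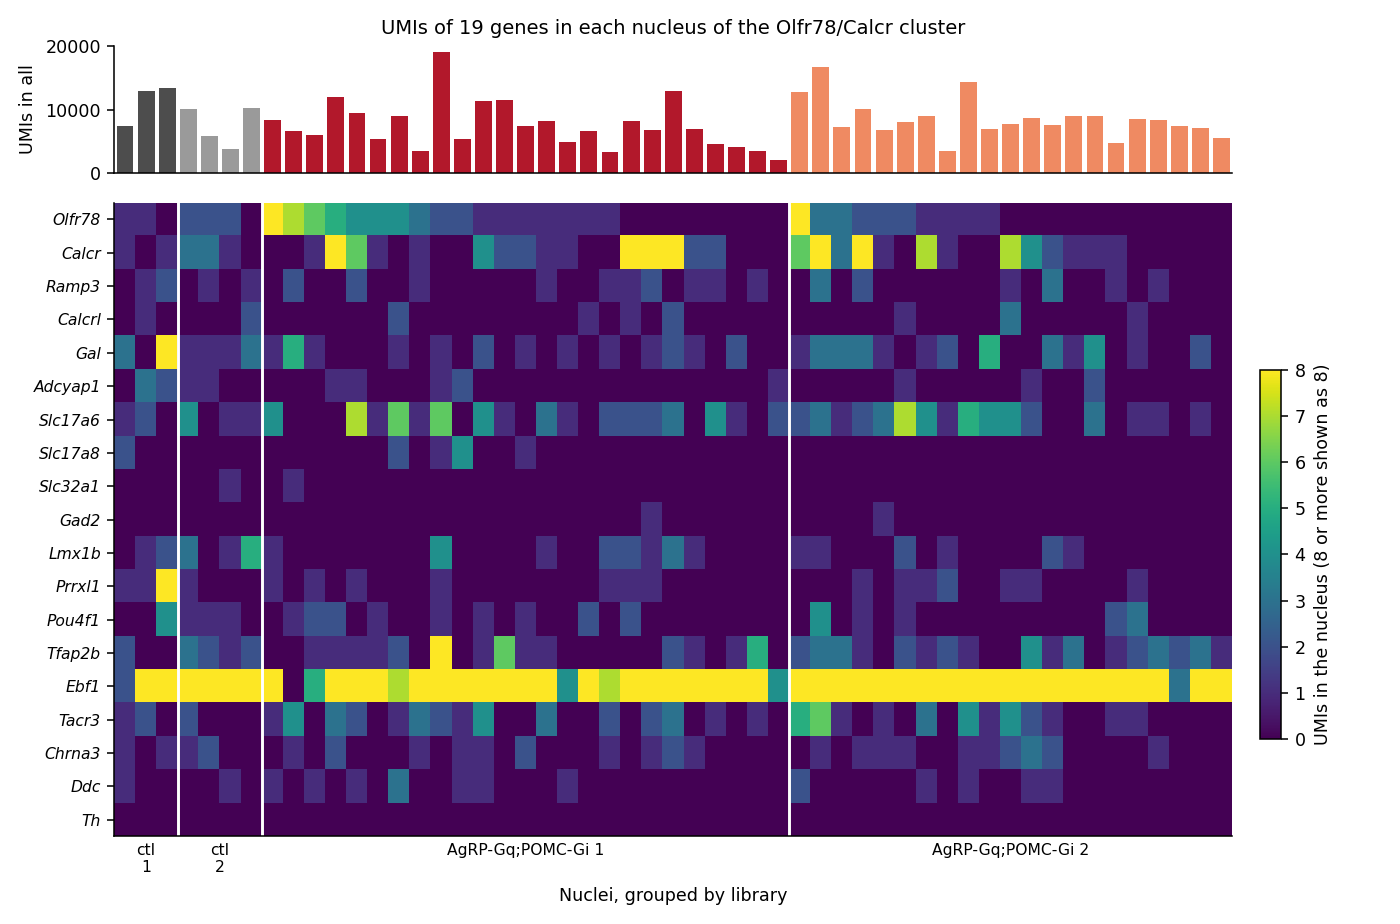
UMIs of 19 genes (rows) in each of the 53 nuclei (columns), grouped by library (ctl, control) and ordered in each by *Olfr78* and *Calcr*; colour gives the UMI count, with 8 or more drawn as 8, and bars give all UMIs of the nucleus. *Olfr78* and *Calcr* overlap in 21 nuclei, *Ebf1* is read in nearly all and *Th* in none.

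Outside the cluster the pair was rare. The cluster held 84 of the 166 *Olfr78* UMIs of all neurons (50.6%), 148 of 616 *Calcr* UMIs (24.0%) and 29 of 194 *Ramp3* UMIs (14.9%). *Olfr78* and *Calcr* were read together in 2 of the other 12486 neurons and in 0 of 26922 non-neuronal nuclei, which allows up to 0.0111%. Among the 4842 barcodes that the authors left out, 2 had both genes, 1 in a control and 1 in an AgRP-Gq;POMC-Gi library. Of the 134 neuronal clusters it had the highest pooled level of *Olfr78*, 196 CPM against 47.9 CPM in the next, *Rspo2*/*Ntng1*. The pooled level of *Calcr* was 345 CPM in the cluster and 285 CPM in the *Calcr*/*Shox2* cluster, in which *Olfr78* had no UMI. The libraries of both overlapped, at 59.2 to 407 and 133 to 392 CPM, so neither was ranked above the other.

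A second olfactory receptor gene, *Olfr560*, lies within *Olfr78* on the same strand, with an overlap of 7549 bases. It was singled out after its values were seen. In the cluster it had 0, 5, 20 and 21 UMIs and was read in 18 nuclei. In 15 of these 18 nuclei *Olfr78* was read as well. The other 12486 neurons held 28 UMIs of *Olfr560*, so 62.2% of its neuronal UMIs lay in the cluster. Since the transcripts overlap on 1 strand, reads of the shared stretch can be counted for either gene, and the levels of *Olfr78* and *Olfr560* are uncertain to that extent. Counting either gene as *Olfr78* signal gave 35 nuclei with a UMI, and 45 of 53 nuclei had a UMI of *Olfr78*, *Olfr560* or *Calcr*.

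Of the genes of the calcitonin receptor family, *Ramp3* stood out next to *Calcr*. *Ramp3* (chr11:6658521-6677475) was at 88.8, 66.8, 69.7 and 61.6 CPM in the cluster and at 0.746, 1.13, 1.27 and 1.97 CPM in other neurons. Its mean of 71.7 ± 11.9 CPM was 56.1 times that of other neurons. The 4 values rested on 3, 2, 13 and 11 UMIs, too few in the control libraries to show how far they vary. It had a UMI in 20 nuclei, 14 of them with *Calcr*. *Calcrl*, the related receptor for CGRP and adrenomedullin, was at 39.1 ± 18.5 CPM against 6.67 ± 1.01 CPM and higher in each library. *Ramp1* had 3 UMIs in the cluster and *Ramp2* none. Of the ligands, *Calca* had 1 UMI, and *Calcb*, *Iapp* (amylin), *Adm* and *Adm2* had 0. A count of 0 in the 53 nuclei allows a share of nuclei with a UMI, not of nuclei that express the gene, of up to 5.66% (3 nuclei) and a pooled level of up to 7.0 CPM.

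The 20 genes with the highest ratio to other neurons, among genes read in at least 30% of the cluster and above other neurons in all 4 libraries, began with *Olfr78*, *Calcr* and *Ramp3*. The rule was met by 680 of 3887 genes, a background of 17.5%. The next was *Gm13404*, a long intergenic RNA, at 149 ± 34.8 CPM against 3.96 ± 1.21 CPM. It was followed by *9330185C12Rik*, another long intergenic RNA (375 ± 76.9 against 11 ± 2.91 CPM). *Chrna3*, a subunit of ganglionic-type nicotinic acetylcholine receptors, was at 59.2, 100.2, 69.7 and 78.4 CPM, against at most 2.79 CPM in other neurons of any library. *Tacr3*, the neurokinin 3 receptor, was at 88.8, 66.8, 177 and 168 CPM and at most 11.3 CPM elsewhere. *Gal*, the neuropeptide galanin, was at 326, 200.4, 107 and 168 CPM against 5.55 to 18.8 CPM. *Pcsk1*, a protease that cleaves neuropeptide precursors, was 11.9 times as high as in other neurons, but 7.22 times without control replicate 1. *Trim68* was 24.0 times as high. The ratios of the 20 ran from 263 for *Olfr78* down to 11.9 for *Pcsk1*.

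**Figure D2:**
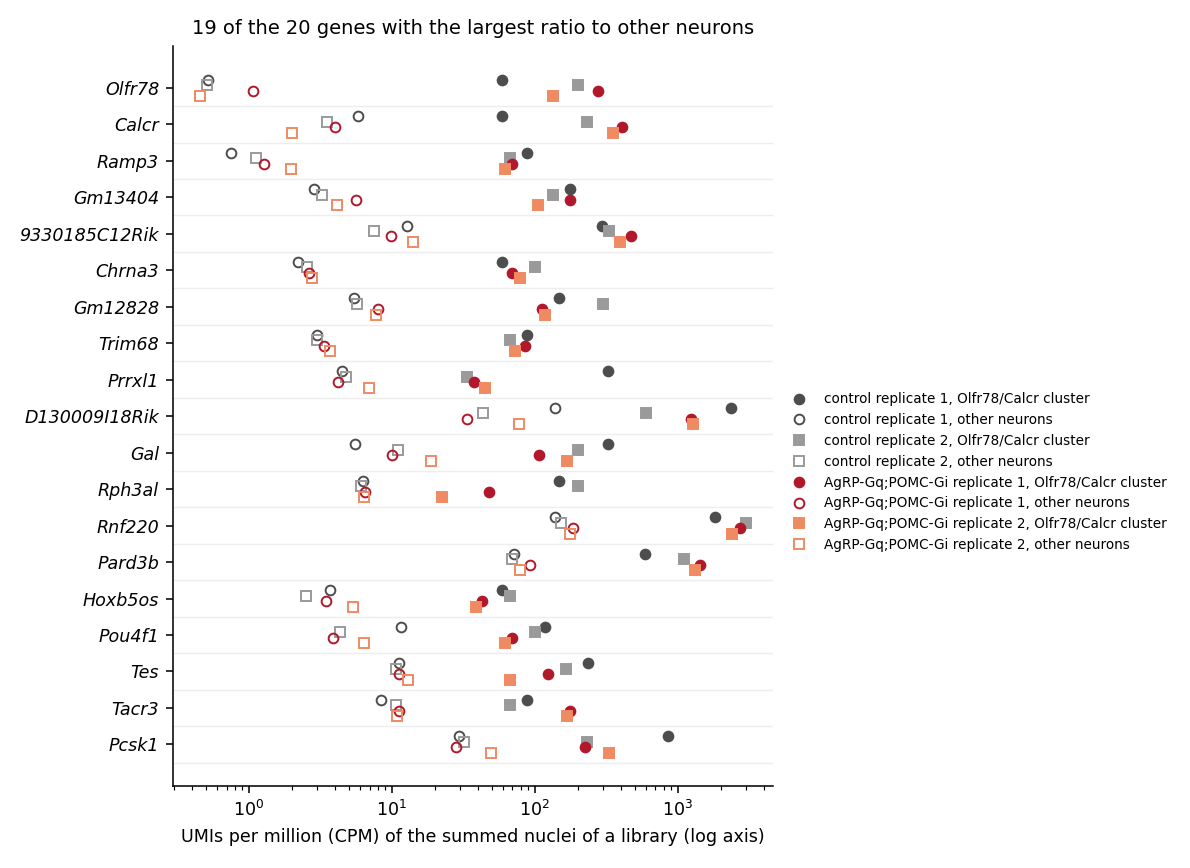
Level in CPM (log axis) of 19 of the 20 genes with the highest ratio to other neurons, 1 point per library, filled for the summed nuclei of the cluster and open for the summed other neurons. For each gene the 4 filled points lie above all 4 open points, and control replicate 1, with 3 nuclei, stands apart for *Prrxl1* and *Pcsk1*.

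Some of the leading genes were neighbours in the genome. *Trim68* lies 51.2 kb from *Olfr78* on the same strand of chromosome 7. *Gm12828* lies inside *Rnf220* on the opposite strand, and reads of the pair cannot be parted where the counting ignored strand. *Rnf220*, a ubiquitin ligase, was read in all 53 nuclei at 2493 ± 502 CPM, against 164 ± 21.8 CPM in other neurons. *D130009I18Rik* lies 144.8 kb from *Pou4f1* on chromosome 14 and *Gm13404* 337.7 kb from *Lmx1b* on chromosome 2, and both transcription factor genes were among the higher ones of the cluster too. The nicotinic receptor genes *Chrna5* (chr9:54980880-55007779), *Chrna3* (chr9:55010111-55026562) and *Chrnb4* (chr9:55028154-55048779) form 1 gene cluster. *Chrnb4* was at 29.6, 33.4, 16.1 and 28.0 CPM against 0.712 to 0.839 CPM in other neurons. No other neuronal cluster reached its pooled level of 23.3 CPM, but this rested on 10 UMIs, with 1 in each control library. *Chrna5* had 10 UMIs, all in the AgRP-Gq;POMC-Gi libraries. *Chrna7*, the subunit of homomeric receptors, had 6 UMIs and was at 20.4 ± 27.9 CPM against 39.1 ± 2.30 CPM, a ratio of 0.522 that was 0.194 without control replicate 1.

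The transmitter genes were those of glutamatergic neurons. *Slc17a6*, the vesicular glutamate transporter VGLUT2, was at 88.8, 200.4, 268 and 246 CPM in the cluster and at 71.2 to 77.5 CPM in other neurons. It was read in 38 of 53 nuclei, 71.7% against 35.5% of other neurons and 3.49% of oligodendrocytes. The inhibitory genes were at the floor, with 2 UMIs for *Slc32a1*, 1 for *Gad1*, 2 for *Gad2* and 1 for *Slc6a5*, the glycine transporter. *Slc17a8* (VGLUT3) had 10 UMIs in 5 nuclei, 9.43% of the cluster, in 1 library of each group. *Ddc*, which makes dopamine and serotonin from their precursors, was higher than in other neurons in each library, at 36.2 ± 8.22 against 13.5 ± 3.39 CPM. *Th* had no UMI and *Dbh* had 1, a ratio of 1.03 to other neurons. These genes, of the enzymes before and after *Ddc* in catecholamine synthesis, had too few UMIs to be called present or absent.

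Of 35 neuropeptide genes, 11 were read in at least 5% of the nuclei and 2 of these, *Gal* and *Adcyap1*, were at least 2 times as high as in other neurons. Over all genes the share was 12.7% (1431 of 11265). Another 4 of the 11 (36.4%) were at most 0.5 times as high, against 12.2% over all genes. *Adcyap1*, which encodes PACAP, was at 67.3 ± 57.1 CPM against 12.5 ± 2.51 CPM and above other neurons in each library, with a ratio of 5.37 that was 3.18 without control replicate 1. *Penk* and *Sst* were lower, at 11.5 ± 12.9 against 43.0 ± 7.88 CPM and at 11.6 ± 14.4 against 30.2 ± 4.85 CPM. Without control replicate 1 their ratios went from 0.267 to 0.120 and from 0.384 to 0.185. *Agrp* was read in 43.4% of the nuclei, but in 50.8% of other neurons as well, so it did not mark the cluster. The paper places AgRP neurons in the arcuate nucleus, and the origin of these *Agrp* UMIs in hindbrain nuclei was not tested.

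Receptors for feeding signals were read about as often as genes at large. Of 54 such genes, 27 had no UMI (50.0%, against 53.1% over all genes), 14 were read in at least 5% of the nuclei, and 3 of these were at least 2 times as high as in other neurons, against 12.7% over all genes. The 3 were *Tacr3*, *Gfral* and *Sctr*. *Gfral*, the receptor for GDF15, had 6 UMIs in 4 nuclei, and its ratio to other neurons fell from 7.77 to 0.812 without control replicate 1. *Sctr*, the secretin receptor, had 8 UMIs in 6 nuclei, and its ratio of 6.68 was 3.01 without AgRP-Gq;POMC-Gi replicate 1. *Glp1r* had 3 UMIs. Of the 24 receptor genes read in at least 5% of other neurons, 12 were at most 0.5 times as high in the cluster, against 22.0% over all genes. *Htr2c*, a serotonin receptor read in 65.0% of other neurons, was at 0, 0, 16.1 and 28.0 CPM against 658 to 805 CPM. *Htr4* had no UMI, which made it at least 8.87-fold lower, taking 3 UMIs over the cluster as the floor. *Oprm1*, the mu opioid receptor, was at 22.2 ± 30.5 against 106 ± 4.20 CPM, a ratio of 0.209 that was 0.0685 without control replicate 2, and *Lepr* had 1 UMI.

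The genes that serve olfactory signalling and chemosensing were examined because of *Olfr78*. Of 24, 13 had no UMI, 9 were read in at least 5% of the nuclei and 4 of these were at least 2 times as high as in other neurons. Over all genes 53.1% had no UMI, near the 54.2% of the list, and 12.7% of those so read were at least 2 times as high. Among the 4 were *Olfr78*, *Kcnk3* and *Epas1*. *Gnal*, the G protein subunit of olfactory neurons, was lower in the cluster, at 39.2 ± 40.1 against 142 ± 8.51 CPM, and its ratio of 0.277 was 0.145 without AgRP-Gq;POMC-Gi replicate 2. *Gnas*, the broadly used stimulatory subunit, was at 1341 ± 174 against 700.1 ± 46.2 CPM and higher in each library. *Adcy3* was at 41.2 ± 26.4 against 42.6 ± 3.49 CPM. *Epas1*, an oxygen-sensing transcription factor of glomus cells, had 4 UMIs in the cluster and a ratio of 5.36, or 2.70 without control replicate 1, and *Olfr558*, *Cox4i2*, *Higd1c* and *Ndufa4l2* had none.

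Transcription factors of hindbrain lineages differed from other neurons in both directions. Of 72 such genes, 43 had no UMI in the cluster and 19 were read in at least 5% of the nuclei. Of these 19, 10 were at least 2 times as high as in other neurons, against the background of 12.7%, and of the 29 read in at least 5% of other neurons 18 were at most 0.5 times as high, against 22.0%. *Lmx1b*, *Prrxl1* and *Tfap2b* were at 129 ± 116, 110 ± 144 and 173 ± 86.3 CPM, which were 8.14, 21.6 and 7.41 times the levels of other neurons. *Prrxl1* varied most, since control replicate 1 was at 326 CPM and the other 3 libraries between 33.4 and 44.8 CPM. Without control replicate 1 its ratio was 7.23, and without control replicate 2 that of *Lmx1b* was 4.298. *Pou4f1*, known from sensory neurons, was at 118, 100.2, 69.7 and 61.6 CPM against at most 11.6 CPM. *Ebf1* was read in 52 of the nuclei (98.1%) at 2122 ± 284 CPM, 4.05 times the level of other neurons, while its paralogs *Ebf2* and *Ebf3* had no UMI, at least 10.0-fold and 13.9-fold lower. *Pbx3* was at 1586 ± 166 against 313 ± 30.9 CPM. *Pax2*, *Pax8* and *Lhx1*, which mark inhibitory lineages among others, had no UMI in the cluster.

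Hox genes, whose nested domains give position along the hindbrain and spinal cord, were read from paralog groups 2 to 7. Of 27 genes 12 were read in at least 5% of the nuclei, and 11 of these were at least 2 times as high as in other neurons, against 12.7% over all genes. *Hoxb5* was at 207, 134, 129 and 56.0 CPM against 13.1 to 29.7 CPM (ratio 7.22, or 10.9 without AgRP-Gq;POMC-Gi replicate 2), *Hoxb4* at 99.4 ± 9.68 against 26.8 ± 8.74 CPM and *Hoxb3* at 155 ± 98.9 against 49.2 ± 4.91 CPM. *Hoxd3* was the exception, at 5.48 ± 6.33 against 26.4 ± 3.14 CPM (ratio 0.207, or 0.134 without AgRP-Gq;POMC-Gi replicate 1). None of the 7 genes of groups 8 and 9 on the list had a UMI, nor did *Hoxb1*, *Hoxd1* and *Hoxa6*.

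Channel genes differed from other neurons in both directions, and genes of second messengers were more often lower than higher. Of 47 channel genes, 39 were read in at least 5% of the nuclei, with 8 at least 2 times as high as in other neurons and 8 at most 0.5 times as high. Over all 11265 genes so read the shares were 12.7% and 12.2%. *Cacna2d1* was at 1535 ± 109 against 503 ± 24.9 CPM. *Cacna2d3*, *Kcna1* and *Kcnip4* were lower, at 17.0 ± 12.5 against 528 ± 16.1, 2.68 ± 5.36 against 130 ± 3.46 and 464 ± 323 against 4139 ± 164 CPM. *Camk2a*, a kinase of glutamatergic neurons, was at 482 ± 97.8 against 106 ± 19.8 CPM. Of 33 genes of cyclic AMP and calcium signalling, 32 were read in at least 5% of the nuclei, of which 3 (9.38%) were at least 2 times as high, below the background of 12.7%. In the same set 11 were at most 0.5 times as high, against 12.2%, among them *Ryr3* (6 UMIs, 8.40 ± 16.8 against 431 ± 10.9 CPM), *Prkg1* (42.9 ± 58.2 against 860 ± 58.1 CPM) and *Adcy8* (11 ± 12.7 against 286 ± 19.6 CPM). Without AgRP-Gq;POMC-Gi replicate 2 the ratio of *Prkg1* went from 0.0498 to 0.0191 and that of *Adcy8* from 0.0383 to 0.0252. The lowest ratios among genes read in at least 60% of other neurons were those of *Htr2c* (0.0149), *Ryr3*, *Specc1*, *Prr16* and *Cacna2d3*. Each had at most 9 UMIs in the cluster. Without AgRP-Gq;POMC-Gi replicate 2 the ratio of *Htr2c* was 0.00702 and that of *Ryr3* was 0. Among genes read in at least 30% of the cluster, *Grm7*, *Lrrc4c*, *Kcnip4*, *Spock1* and *Nrxn3* were lowest, between 0.0710 and 0.122 times the level of other neurons.

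Markers of other cell types stood near their level in other neurons. Of 20 glial and vascular genes, 10 were read in at least 5% of the nuclei. Of these 10, 1 (10%) was at least 2 times as high as in other neurons, against 12.7% over all genes. This was *Pecam1* with 3 UMIs, at 1.01 times without control replicate 2. Another 2 (20%) were at most 0.5 times as high, against 12.2%. Summed over the 20 genes, the level was 370 to 1537 CPM in the cluster and 340 to 1427 CPM in other neurons of those libraries. *Ttr*, *P2ry12* and *Mbp* were at like levels in both. *Ttr*, a choroid plexus gene, had 0, 35, 0 and 129 UMIs in the cluster, and in other neurons too it was high in the second library of each group. The median ratio of the list was 1.09. Of 6 pan-neuronal genes all were read. *Snap25* was at 889 ± 170.1 against 715 ± 12.3 CPM, whereas *Rbfox3*, the gene of the neuronal marker NeuN, was read in 37.7% of the nuclei against 75.7% of other neurons.

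By its whole profile over 12115 genes, the cluster was most like *Casr*/*Slc6a2* (r = 0.428), *Gfral*/*Sctr* (r = 0.426) and *Tfap2b*/*Cntnap5b* (r = 0.382), with *Gal*/*Dkk2* (r = 0.331) in the fifth place. The measure was Pearson's r between pooled log2 levels centred on all clusters, and the median over the other clusters was -0.0286. These r are descriptions across genes, which are not independent replicates. The 4 clusters shared *Lmx1b*, at 81.6 CPM here and 105, 114 and 46.5 CPM in the 3 neighbours in that order, and likewise *Tfap2b* (179.5 against 189.6, 158 and 372 CPM) and *Rnf220* (2542 against 2619, 2706 and 1413 CPM). They differed in their receptors. *Casr*, the calcium-sensing receptor, had no UMI here and was at 321 CPM in *Casr*/*Slc6a2*. *Gfral* was at 14.0 CPM here and 355 CPM in *Gfral*/*Sctr*. *Ddc* was at 39.6 CPM here, and those neighbours had 373 and 412 CPM. In the other direction *Calcr* was at 345 CPM here against 29.2, 1.23 and 1.98 CPM in the 3 neighbours, *Tacr3* at 159 against 58.3, 11.04 and 0.989 CPM, and *Pou4f1* at 72.3 against 20.4, 2.45 and 0.989 CPM. *Cntnap5b* was shared with *Tfap2b*/*Cntnap5b*, at 1835 and 2233 CPM. The other clusters named for *Calcr*, *Reln*/*Calcr* and *Calcr*/*Shox2*, had no UMI of *Ramp3* or *Tfap2b*.

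**Figure D3:**
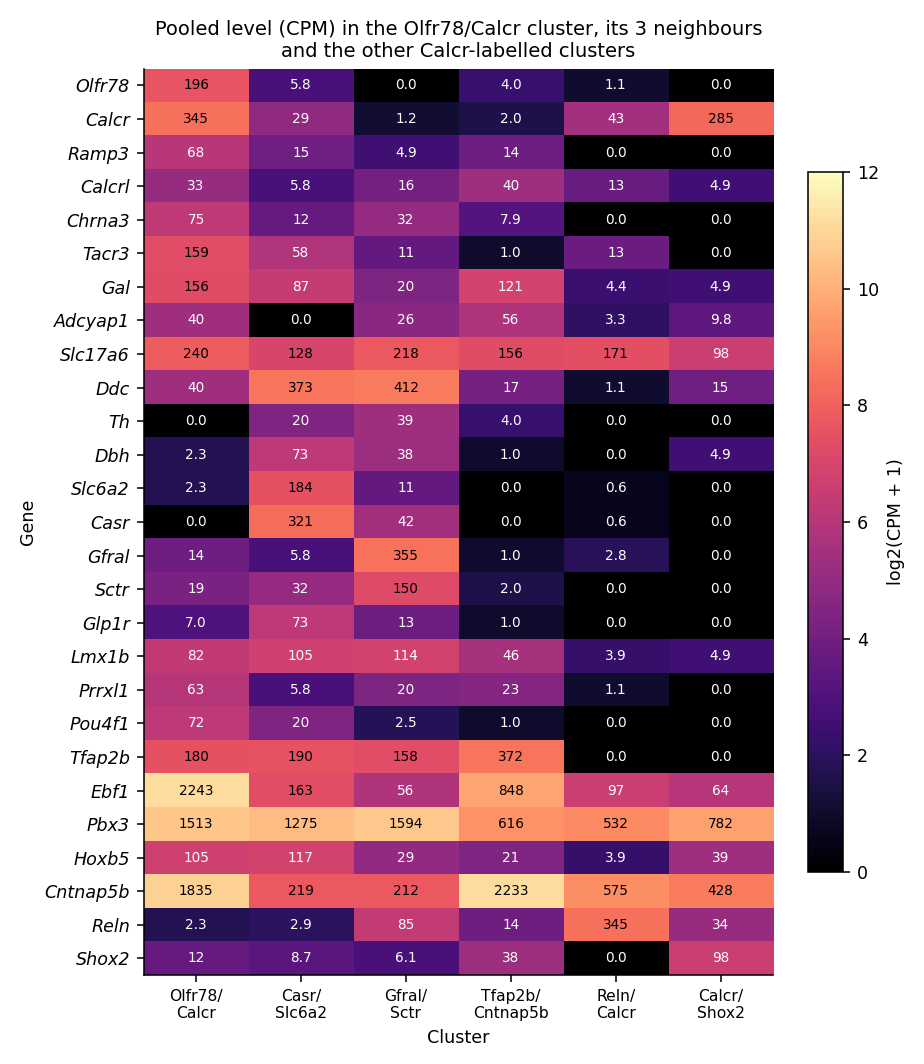
Pooled level in CPM (numbers; colour gives log2(CPM + 1)) of 27 genes in the *Olfr78*/*Calcr* cluster, its 3 neighbours by expression and the 2 other clusters named for *Calcr*. *Lmx1b* and *Tfap2b* are shared with the neighbours, *Olfr78* and *Ramp3* are highest in the first column, and *Casr* and *Gfral* are high in a neighbour.

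The nuclei of the cluster made up a higher share of neurons with AgRP-Gq;POMC-Gi. In the control group the shares were 0.121% (3 of 2470) and 0.146% (4 of 2736), with exact intervals of 0.0251 to 0.355% and 0.0398 to 0.374%. With AgRP-Gq;POMC-Gi they were 0.676% (25 of 3696; 0.438 to 0.997%) and 0.577% (21 of 3637; 0.358 to 0.881%). The groups did not overlap, and the ratio of the mean shares was 4.68, the highest of 134 neuronal clusters. The exact two-sided permutation test over the 4 libraries gave p = 0.333, which is the smallest p that 2 against 2 libraries allow. A model of the nuclei of all 134 clusters, fitted with edgeR's quasi-likelihood test and chosen after the data were seen, gave a log2 fold change of 2.25 (SE 0.73) for this cluster, with an unadjusted p of 0.0124 and an adjusted p of 0.398. It called 0 of 134 clusters (0.0%) and DESeq2 also called 0, with 9 and 5 clusters under 0.05 before adjustment. The difference in share was thus not significant after correction.

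The clusters most like it by expression were also separated by group. The 5 clusters of highest r with it were each higher in both AgRP-Gq;POMC-Gi libraries than in both control libraries, as were 33 of the 134 clusters (24.6%). *Casr*/*Slc6a2* stood at 0.121 and 0.183% in the control group and at 0.487 and 0.660% in AgRP-Gq;POMC-Gi, a ratio of 3.77 and the second highest. *Gfral*/*Sctr* had a ratio of 2.32 and *Tfap2b*/*Cntnap5b* one of 2.06. Set against *Casr*/*Slc6a2*, the nuclei of the *Olfr78*/*Calcr* cluster numbered 1, 0.8, 1.39 and 0.875 per nucleus in the 4 libraries, and the groups then overlapped (ratio 1.26, exact permutation p = 0.667, 2 against 2 libraries). Against *Gfral*/*Sctr* and *Tfap2b*/*Cntnap5b* the ratios were 1.80 and 2.13 without overlap, each with p = 0.333 by the same exact test. *Reln*/*Calcr* and *Calcr*/*Shox2* were not higher in both AgRP-Gq;POMC-Gi libraries, with ratios of 1.05 and 0.593. More cells of a type, a larger part of its region in the dissection and a better capture of its nuclei cannot be told apart in these libraries.

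**Figure D4:**
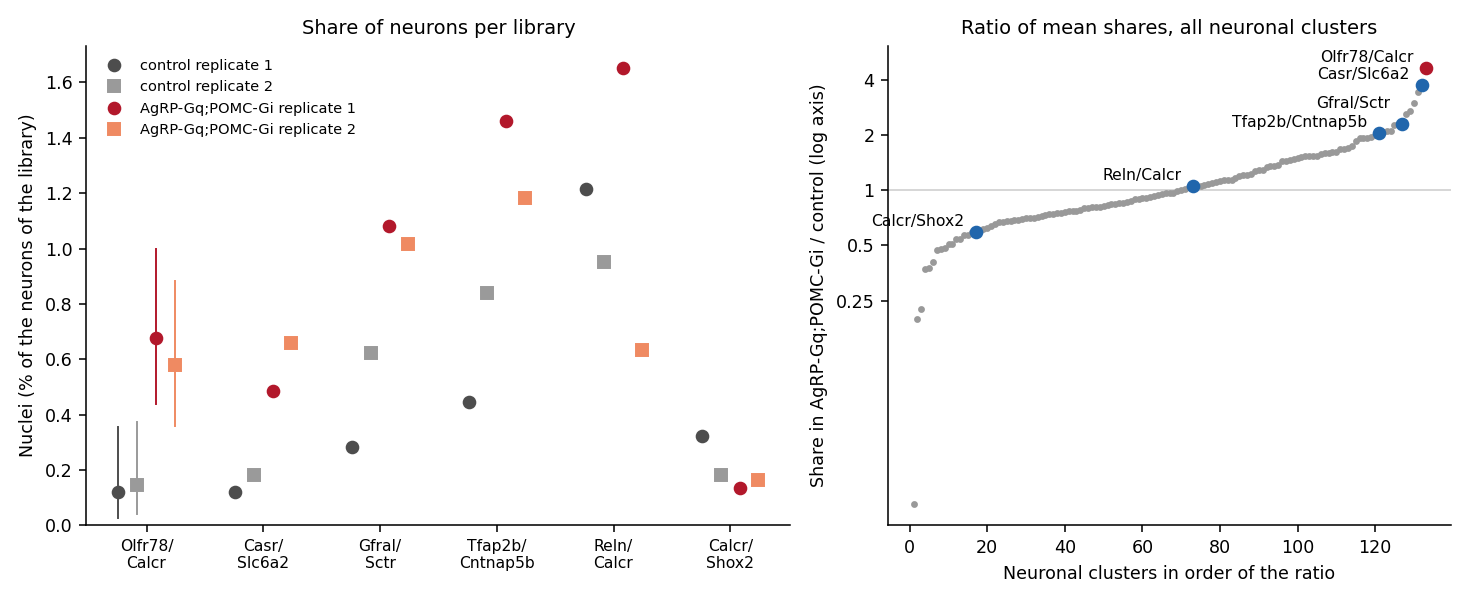
Left, nuclei of 6 clusters as a percentage of the neurons of each library (points; bars for *Olfr78*/*Calcr* are 95% exact intervals). Right, the ratio of mean shares, AgRP-Gq;POMC-Gi over control (log axis), of 133 neuronal clusters in order, without the 1 cluster that had no nucleus in the AgRP-Gq;POMC-Gi libraries; *Olfr78*/*Calcr* is highest at 4.68, *Casr*/*Slc6a2* is next, and *Gfral*/*Sctr* and *Tfap2b*/*Cntnap5b* lie above 2.

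The expression of the cluster was compared between the groups on UMIs summed per library. The planned minimum of 5 nuclei per library was not met by the control libraries, so the test was run with a minimum of 3 nuclei, a choice made after the data were seen. edgeR's quasi-likelihood test with Benjamini-Hochberg adjustment called 0 of 11265 genes (0.0%), with 524 genes (4.65%) under 0.05 before adjustment, and DESeq2 called 0 as well, with 62 such genes. The scaling factors split with the groups, at 1.17 and 1.20 in the control libraries against 0.831 and 0.857, and moved the median log2 difference over all genes from 0.02 without them to 0.51. Without them 4 genes were called. The genes under 0.05 before adjustment were then 205 higher and 215 lower in AgRP-Gq;POMC-Gi, against 484 and 40 with the factors. A gene could also pass the filter of 5% of the 53 nuclei through AgRP-Gq;POMC-Gi nuclei alone. With edgeR's own filter (filterByExpr) and such factors, 2228 genes were tested. Of these, 82 were higher and 65 lower under 0.05 before adjustment, and the median was 0.03. Values below are given with the factors of the main fit and should be read against its median of 0.51. The 10 genes of smallest p all had an adjusted p of 0.690 and were higher in AgRP-Gq;POMC-Gi, from *Ptprd* (log2 difference 1.07, SE 0.22) to *Cd2ap* (2.82, SE 0.57). The others were *Cadm1*, *A230006K03Rik*, *Lingo2*, *Sema3e*, *Ncam2*, *Kansl1*, *Luzp2* and *Slc24a5*. *Cadm1*, a synaptic adhesion molecule, was at 711, 735, 1795 and 1451 CPM and *Lingo2* at 1332, 1537, 4437 and 2851 CPM. Both were picked for a small p in these libraries, so the gap between their groups is no further support.

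None of the label or leading genes passed the test either. *Calcr* had a log2 difference of 1.90 (SE 0.53), *Olfr78* 1.20 (SE 0.73), *Slc17a6* 1.34 (SE 0.44), *Ramp3* 0.23 (SE 0.55) and *Gal* -0.47 (SE 0.45), all against the shift of 0.51 and with adjusted p from edgeR of 0.690 to 0.954. For *Calcr* the 4 levels given above were 59.2 and 234 against 407 and 353 CPM, and the control values rested on 2 and 7 UMIs. *Calcr* was picked as a marker of these same nuclei, most of them from AgRP-Gq;POMC-Gi, so this gap is not independent of the label.

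Immediate early genes (IEGs), which are induced within an hour of neuronal activity, were the study's readout of activation. Of the 10 genes the study used, 9 were tested in the cluster. edgeR called 0, with 0 under 0.05 before adjustment, and DESeq2 called 0. *Fos* had 0, 0, 2 and 2 UMIs, so no fold is given. *Homer1* had 3, 0, 9 and 25 UMIs, *Nr4a1* 2, 0, 5 and 14, and *1700016P03Rik*, a host transcript of activity-induced microRNAs, 9, 0, 10 and 42. *Gem* had 10, 0, 4 and 8 UMIs and *Jun* 3, 0, 5 and 2. The log2 differences were 1.45 (SE 1.18) for *Homer1*, 1.18 (SE 1.25) for *Nr4a1*, 0.51 (SE 1.23) for *1700016P03Rik*, -1.72 (SE 1.16) for *Gem* and -0.77 (SE 1.25) for *Jun*. Each difference was less than 2 times its SE, which restates the edgeR test, since this SE was derived from its F statistic.

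Single nuclei held a large part of the IEG UMIs in some libraries. The summed level of the 10 genes was 1125, 100.2, 252 and 622 CPM in the cluster, against 153 to 192 CPM in other neurons. In control replicate 1, 1 of the 3 nuclei held 32 of the 38 IEG UMIs (84.2%), and in AgRP-Gq;POMC-Gi replicate 2, 1 of 21 nuclei held 42 of 111 (37.8%). Of the 53 nuclei, 37 had at least 1 IEG UMI and 10 had UMIs of 3 or more IEGs, which were 2 of 3, 0 of 4, 5 of 25 and 3 of 21 nuclei in the 4 libraries. In other neurons 9.84% had 3 or more. With 7 control nuclei, neither an activation nor its absence could be read for this cluster. Of 27 other activity-induced genes, 13 were tested and 0 were called by edgeR, with 0 under 0.05 before adjustment. *Fosb* had 5 UMIs, *Egr1* 5, *Npas4* 3 and *Arc* 1.

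**Figure D5:**
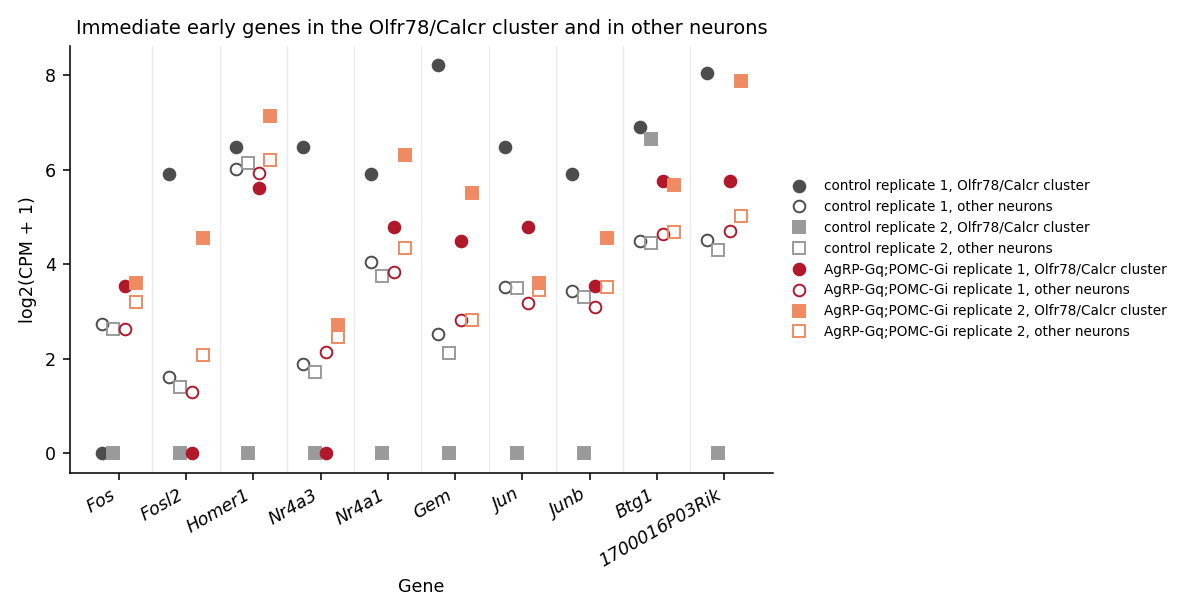
Level of the 10 immediate early genes as log2(CPM + 1), 1 point per library, filled for the cluster and open for other neurons. The open points of a gene lie close together, whereas control replicate 2 is at 0 in the cluster for 9 genes and control replicate 1 is highest for 7.

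Lastly, the difference between groups in the cluster was set against the same difference in all other neurons, as an interaction in edgeR. The fit shared 1 estimate of spread per gene between sums of 3 to 25 nuclei and sums of 2467 to 3671 other neurons. Its p-values thus do not measure the spread between libraries of the cluster alone. The interaction called 7 of 11265 genes (0.0621%), *Xist*, *Lingo2*, *Garnl3*, *Galntl6*, *A230006K03Rik*, *Calcr* and *Col25a1*. The call for each was lost when any 1 library was left out, which leaves 1 library in a group, assumed to vary like the others, so a lost call does not show that the difference went away. The difference of *Lingo2* stayed between 1.41 and 1.90 (log2) in these fits and that of *A230006K03Rik* between 2.37 and 3.06, whereas that of *Galntl6* ran from 0.40 without control replicate 1 to 5.73 without control replicate 2. DESeq2 called 0, with 185 genes under 0.05 before adjustment against 606 by edgeR. In edgeR without the scaling factors, only *Xist* and *Col25a1* of the 7 stayed called. *Calcr* was picked as a marker of these same nuclei, most of them from AgRP-Gq;POMC-Gi, so its call is not independent of the label. For *Xist*, the transcript of the inactive X chromosome of females, the libraries differed in the sex of their nuclei. In the cluster 2, 0, 16 and 2 nuclei had *Xist* without a Y-linked UMI, and 0, 4, 9 and 18 the reverse. In other neurons the shares with *Xist* alone were 63.5, 45.0, 61.6 and 1.7%, and those with Y-linked UMIs alone 26.6, 41.5, 27.6 and 88.8%. The 53 nuclei held 20 with *Xist* alone, 31 with Y-linked UMIs alone and 2 with neither, and none with both.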

How the data were processed

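Nuclei were prepared from dissected hindbrain, sorted by DRAQ5 and sequenced with the 10x Genomics 3′ kit. The authors counted UMIs on GRCm38 and processed them further, and the submitters' processing notes name Cell Ranger 7.0.0 and Seurat 4.3.0. The deposited matrices hold whole UMI counts per gene and barcode, before the authors' filter of 800 UMIs, 500 genes and 10% mitochondrial RNA. Doublets were treated by the authors. The deposited table of nuclei gives each barcode's library, filter result, cluster and mitochondrial percent, which were used as given. Its columns on the authors' IEG comparison were not used here. The number of columns of values left unmapped was 0.

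UMIs of the *Olfr78*/*Calcr* cluster and of all other neurons were summed per library and scaled to CPM by the total of those nuclei (mean ± SD over 4 libraries). Depth per library is given with the results, and intervals cover counting error only. Groups were compared by edgeR 4.0.16 (quasi-likelihood, TMM factors, Benjamini-Hochberg adjustment, R 4.3.3), for genes that at least 5% of the 53 nuclei held, and shares by an exact permutation test. The SE given for an edgeR fit is the absolute log2 difference divided by the square root of its F statistic, not a separate estimate. The design asked for 5 nuclei per library, which the control libraries did not hold. The fits with a minimum of 3 nuclei, and the edgeR fit of nuclei per cluster, were added after the data were seen. Alternatives were no TMM factors, DESeq2 1.42.0, no filter, filterByExpr, a replicate block, each library left out, other denominators, pooled UMIs, means over nuclei and thinning to 2000 UMIs. The fits were tested on simulated data.

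The genes named were those of 16 lists, the 20 of highest ratio to other neurons among genes in at least 30% of the nuclei, the lowest 5 by each of 2 filters, genes past the test between groups, the 10 of smallest p, and label genes of like clusters. A few of these genes are not reported here. The members and lists were chosen with earlier results of these data known. Gene positions come from GENCODE M21 (GRCm38). Python 3.11.15 served for tables (pandas 2.3.3, numpy 2.4.6, scipy 1.17.1) and figures (matplotlib 3.10.9).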

Additional observations from a re-analysis of the deposited data

Results flagged for a closer look

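Of the genes whose group difference in the *Olfr78*/*Calcr* cluster departed from that in other neurons by the interaction test of edgeR, 7 passed an adjusted p of 0.05. The interaction, in log2 units, was 2.17 for *Xist*, 1.65 for *Lingo2*, 3.63 for *Garnl3*, 1.73 for *Galntl6*, 2.69 for *A230006K03Rik*, 2.50 for *Calcr* and -2.08 for *Col25a1*, with edgeR adjusted p-values from 0.000822 to 0.0450. The median over all genes was 0.47. It was 0.05 without the scaling factors, and 0.03 with such factors over the 2228 genes that filterByExpr kept.

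Values are given for control replicates 1 and 2 and then for those of AgRP-Gq;POMC-Gi. In the cluster *Garnl3* had 2, 0, 67 and 43 UMIs (59.2, 0, 359 and 241 CPM), and in other neurons it stayed between 205 and 214 CPM. *A230006K03Rik* had 2, 3, 73 and 63 UMIs, in libraries of unequal depth (59.2, 100.2, 391 and 353 CPM). *Galntl6* was at 59.2, 2339, 1688 and 3288 CPM, so its groups overlapped, and its interaction of 1.73 was 0.40 without control replicate 1 and 5.73 without control replicate 2. *Calcr* was at 59.2, 234, 407 and 353 CPM in the cluster and, in other neurons, at 5.85, 3.54, 4.04 and 2.02 CPM, and its interaction was 1.39 without control replicate 1 and 4.05 without control replicate 2. *Lingo2* was at 1332, 1537, 4437 and 2851 CPM against 3008 to 3347 CPM in other neurons. *Col25a1* had 27, 2, 14 and 14 UMIs (799, 66.8, 75.0 and 78.4 CPM), so that its direction rested on control replicate 1, without which its interaction was 0.57. *Xist* was at 1628, 0, 1372 and 274 CPM in the cluster and at 505, 319, 537 and 14.9 CPM in other neurons, and its interaction was 1.14 without control replicate 2. Leaving out replicate 1 of AgRP-Gq;POMC-Gi gave 4.10 for it, and leaving out replicate 2 gave 1.21.

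None of the 7 was called in any fit with 1 library left out, in which adjusted p-values ran from 0.0667 to 0.979, and none by DESeq2. A fit without 1 library leaves a group with 1 library, so the lost calls do not show that the differences went away. Control libraries held 3 and 4 nuclei of the cluster, and the part of these low numbers in the calls was not tested. The interaction fit shared 1 estimate of spread per gene between the sums of the cluster and those of other neurons. Its p-values thus do not measure the spread between libraries of the cluster alone. Without TMM factors only *Xist* and *Col25a1* of the 7 stayed called. Without a filter all but *Calcr* and *Col25a1* did, and with filterByExpr none. As a label gene, *Calcr* was picked as a marker of these same nuclei, so its call is not independent of that choice.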

How the results depend on the processing

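The number of genes called between groups in the *Olfr78*/*Calcr* cluster was 0 in the main comparison, 0 with DESeq2, without a filter and with filterByExpr, and 4 without TMM factors (*Lingo2* higher; *Col25a1*, *Adarb2* and *Epha6* lower). Leaving out each library gave 0 to 3, the 3 (*Lingo2*, *Ttr* and *Malat1*) without AgRP-Gq;POMC-Gi replicate 2. With the replicate block 7 were called, all higher. Same-numbered libraries correlated at r = 0.016 in the cluster and 0.168 in other neurons over 2 pairs. These are too few to show a pairing and no label names a shared day or batch, so the numbers were not used to pair libraries, although *Ttr* was high in both libraries numbered 2 and low in both numbered 1. No IEG was called in any of these fits. The interaction called 7 genes, and 4 without TMM factors (1 higher), 5 without a filter, 0 with DESeq2, 0 with filterByExpr and 0 with each library left out in turn. The cause of these shifts was not tested, beyond the fewer genes or samples of filterByExpr and of the fits with a library left out.

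Over fits with 1 library left out, group differences of single genes ran from -4.09 to 3.69 for *Fosl2*, -2.67 to 5.20 for *Gem*, -1.69 to 4.45 for *Jun*, -1.33 to 4.24 for *Junb* and -0.83 to 7.29 for *1700016P03Rik*, which was also negative at -0.43 without control replicate 2. The interaction ran from -2.93 to 0.57 for *Col25a1* and from -3.39 to 12.5 for *Epha6*. All these signs but that of *1700016P03Rik* turned when control replicate 1 was left out, and fitted values of genes left without a control UMI are no bound.

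The share stayed higher in AgRP-Gq;POMC-Gi, by 6.62 times over all kept nuclei, 4.68 over nuclei of at least 2000 UMIs and 4.29 to 5.16 with a library left out. Neurons were 2470 of 9725 and 2736 of 10051 kept nuclei in the control libraries. In those of AgRP-Gq;POMC-Gi they were 3696 of 9723 and 3637 of 9962, so the ratio over all kept nuclei also holds this difference in make-up. No fit of nuclei per cluster called it (edgeR and DESeq2 adjusted p 0.378 to 0.919). After thinning to 2000 UMIs *Olfr78* was read in 26.4% and *Calcr* in 24.5% of nuclei. The nearest cluster had r = 0.535 over genes in 20% of neurons, with the same first 5. The ratio to other neurons ranged from 230 to 301 for *Olfr78* and from 52.1 to 104 for *Calcr*. Depth limits all genes of few UMIs, most in the control libraries.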
